A study of Mus musculus with 6 samples.

Results

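The peroxiredoxins and the thioredoxin system were examined as a set of 10 genes in 6 RNA-seq libraries of mouse bone marrow-derived macrophages, primary cells of C57BL/6 mice that are cultured out of marrow. The genes were taken by symbol from a count matrix of 55401 genes, and they are Prdx1, Prdx2, Prdx3, Prdx4, Prdx5, Prdx6, Txn1, Txnrd1, Srxn1 and Gclm. All 10 were found, and all 10 passed the filter on low counts, which kept 15959 genes. The set was chosen by the measured counts of Prdx4, which stood higher in each library of cells given an siRNA against Piezo1. Differences between the groups in these genes are therefore given as a description. Where calls of the fit over all genes are counted among them, the share of all genes called stands beside the count and nothing is read from it.

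The siPiezo1 group held 3 libraries of cells transfected with an siRNA against Piezo1, a mechanically gated cation channel. The siNC group held 3 libraries of cells transfected with a negative-control siRNA. The cells of both groups were stretched mechanically for 4 h, and unstretched cells were not analysed here. The study asks how Piezo1 promotes macrophage proliferation under mechanical stimuli.

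Peroxiredoxins are abundant thiol peroxidases. A reactive cysteine reduces hydrogen peroxide and becomes oxidised, and in most members thioredoxin returns it to the reduced form. Thioredoxin is in turn reduced by thioredoxin reductase with electrons from NADPH, and sulfiredoxin rescues peroxiredoxins whose cysteine has been overoxidised. Macrophages meet hydrogen peroxide from their own NADPH oxidase and from mitochondria, and the transcription factor NRF2 is known to drive several genes of the system, Prdx1, Txnrd1, Srxn1 and Gclm among them.

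The libraries held 67058765 to 75052745 estimated counts in the siPiezo1 group and 61086684 to 73573829 in the siNC group. Piezo1, the siRNA target, stood at 111, 109 and 113 CPM in siPiezo1 replicates 1, 2 and 3, against 180, 285 and 189 CPM in siNC replicates 1, 2 and 3, where CPM is a gene's count scaled to its library's total. Its log2 fold change was -0.97 ± 0.18 (SE, edgeR adjusted p = 0.744), and -0.73 ± 0.06 without siNC replicate 2 (SE, edgeR adjusted p = 0.00245). With all 6 libraries DESeq2 gave -0.98 ± 0.20 (SE) and called Piezo1 lower (DESeq2 adjusted p = 0.000982). All 10 macrophage markers of the list used were measured, with a summed level of 34717 to 37565 CPM in siPiezo1 and 28229 to 35519 CPM in siNC. Lyz2 carried most of that sum, with 25596 to 26818 CPM in siPiezo1 and 20623 to 24964 CPM in siNC. Without siNC replicate 2, 2 of the 10 markers stood apart higher in siPiezo1, against 16.9% of all genes, and 6 lower, against 16.4%. In that fit 3 of the 10 were called lower, Adgre1, Fcgr1 and Aif1 (edgeR adjusted p = 0.0375, 0.0283 and 0.0291), where 0.45% of all genes were. The library of siNC replicate 2 (siNC 2) stood apart. Across genes, the correlation of log2 CPM was 0.927 to 0.949 between siNC 2 and any other library, and 0.967 to 0.977 within the other 5. Csf1r, the receptor of the macrophage growth factor, stood at 2290 CPM in siNC 2, against 4447 and 4547 CPM in siNC 1 and 3, and Aif1 at 17.3 CPM, against 81.5 and 87.6 CPM. Every other macrophage marker was likewise lowest in siNC 2, except Cd14 and Itgam. Cd14 was highest there, with 1263 CPM (siNC 1: 722, siNC 3: 737). Itgam, with 664 CPM there, also exceeded its levels in siNC 1 (541) and siNC 3 (391). Its siPiezo1 libraries differed widely (replicate 1: 1394, replicate 2: 261, replicate 3: 284). The 12 neutrophil markers summed to 915 to 1037 CPM in siPiezo1, against 895, 4295 and 963 CPM in siNC 1, 2 and 3. The list was not uniform: Csf3r was lower in siNC 2, at 58.7 CPM, against 121 and 132 CPM in siNC 1 and 3. Ly6g was near 0 throughout, with at most 0.371 CPM, and the rest of the list was highest in siNC 2. The 15 mitosis genes summed to 596, 757 and 909 CPM in siPiezo1, against 495, 1169 and 515 CPM in siNC. The lists of red-cell, stromal, lymphoid and dendritic markers each summed to at most 18.2 CPM in siPiezo1 and 26.4 CPM in siNC. Of 10 lymphoid markers, Cd3e, Cd3d, Cd3g, Trac and Cd8a were at 0 in all libraries. Results on the 10 genes are therefore given with and without siNC 2, and the part of these other cell types and of dividing cells in them was not tested. In bulk RNA, fewer cells of a type and less RNA per cell cannot be told apart.

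The antioxidant response element, the site NRF2 binds, is short enough to search for in the promoters of the set. RefSeq windows of 300 bases (250 before and 50 after the start, build GRCm38.p6) were found for 9 of the 10 genes. They were searched on both strands for TGACNNNGC and TGAGNNNGC, the forms of the element's core. Of the 32851 windows searched, 12.4% held TGACNNNGC, 17.6% held TGAGNNNGC and 27.8% held at least 1 of them. At least 1 core was found in 4 of the 9 genes, Prdx1, Txnrd1, Srxn1 and Gclm, against 30.8% of the genes searched. With so few genes, nothing is read from this count. The matches before the start site are shown with 21 bases on either side, 5′ to 3′ on the gene's strand, with the core in capitals.
Prdx1 (chr4:116685445-116685495, strand +): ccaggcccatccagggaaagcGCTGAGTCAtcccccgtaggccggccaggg
Txnrd1 (chr10:82859093-82859143, strand +): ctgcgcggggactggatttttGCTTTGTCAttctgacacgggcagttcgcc
Srxn1, distal (chr2:152105345-152105395, strand +): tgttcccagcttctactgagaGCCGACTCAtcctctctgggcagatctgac
Srxn1, proximal (chr2:152105458-152105508, strand +): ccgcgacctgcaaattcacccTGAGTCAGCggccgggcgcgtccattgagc
Gclm (chr3:122245402-122245452, strand +): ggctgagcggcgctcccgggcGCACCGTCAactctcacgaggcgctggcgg

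Srxn1 held 3 cores in its window, the most of the set. No core was found in the windows of Prdx2, Prdx3, Prdx4, Prdx5 and Txn1. The upstream bases of Prdx4 are shown because its counts chose the set.
Prdx4 upstream (chrX:155338461-155338710, strand -): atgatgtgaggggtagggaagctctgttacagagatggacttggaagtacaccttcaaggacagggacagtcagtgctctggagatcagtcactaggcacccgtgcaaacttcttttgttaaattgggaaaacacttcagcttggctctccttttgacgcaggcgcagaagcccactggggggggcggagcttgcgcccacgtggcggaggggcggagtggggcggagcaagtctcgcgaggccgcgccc

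A match to these letters is a description of the sequence and shows no binding. Txnrd1 has 3 windows in the table, for alternative start sites, and only the middle one of them held a core.

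Prdx1 was by far the most abundant peroxiredoxin transcript of these macrophages. Levels of different genes were compared as CPM per kilobase of annotated exon. On that scale Prdx1 averaged 1698 in siPiezo1 and 1504 in siNC. Txn1 averaged 331 in siPiezo1 and 329 in siNC, and Prdx5 averaged 325 in siPiezo1 and 264 in siNC. Srxn1 followed with 149 in siPiezo1 and 122 in siNC, Txnrd1 with 99.7 and 79.1, and Gclm with 67.6 and 51.6. At the low end stood Prdx2 with 45.6 in siPiezo1 and 44.6 in siNC, Prdx6 with 41.5 and 44.8, Prdx4 with 28.8 and 18.9, and Prdx3 with 27.4 and 33.1. The ranges over libraries overlapped, within each group, for the neighbours Txn1 and Prdx5 and for Prdx2 and Prdx6. In siPiezo1 they also overlapped for Txnrd1 and Gclm and for Prdx4 and Prdx3, and in siNC for Gclm and Prdx2, Gclm and Prdx6, and Prdx6 and Prdx3. The order within these pairs is not beyond their spread. The ranking also depends on the length used. With the length of the principal transcript, Prdx5 (551 in siPiezo1, 448 in siNC) stood above Txn1 (331 and 329), and Txnrd1 (200.1 and 159) above Srxn1 (149.7 and 123). On that length Prdx2 (86.3 and 84.3) and Prdx6 (83.6 and 90.2) stood above Gclm (76.1 and 58.1), and Prdx1 was again the highest (2252 and 1995).

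**Figure D1:**
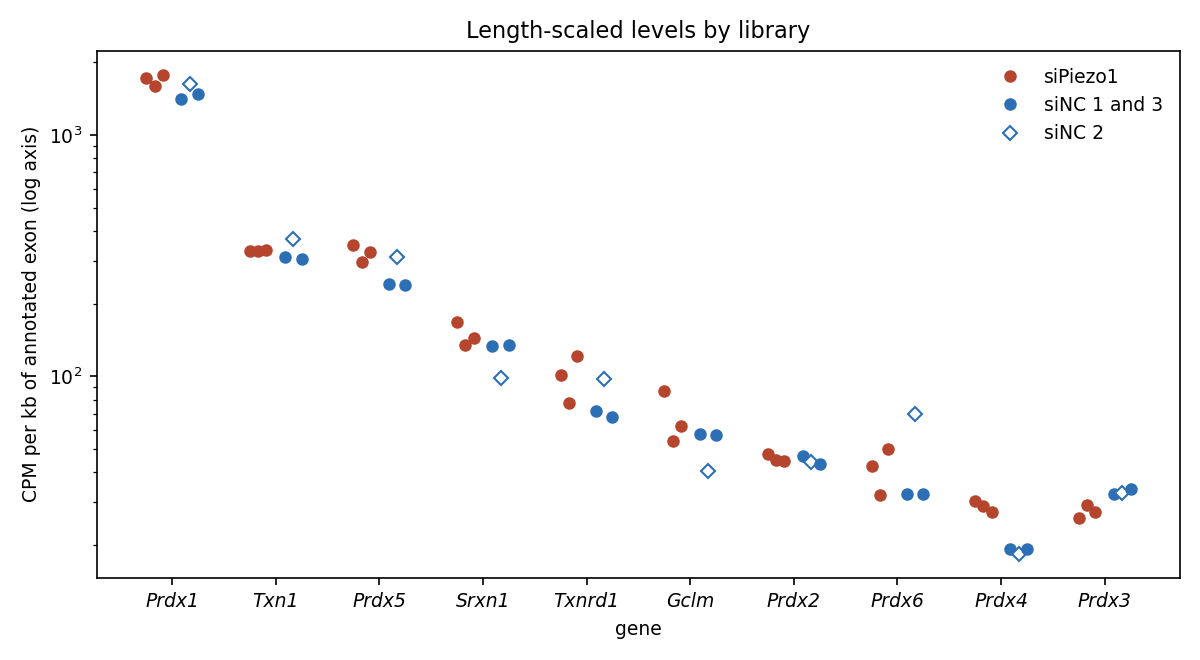
CPM per kilobase of annotated exon on a log axis, 1 point per library, with siPiezo1 left of siNC for each gene and siNC replicate 2 as an open diamond. Prdx1 lies between 1409 and 1778 in all 6 libraries, while the mean of Prdx4 is just above that of Prdx3 in siPiezo1 (28.8 and 27.4) and below it in siNC (18.9 and 33.1).

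The make-up of the peroxiredoxin pool can be read from the same scale. Prdx1 held 78.4% ± 0.665 of the summed peroxiredoxin level in siPiezo1 and 78.8% ± 1.42 in siNC (SD, n = 3 each). Prdx4 held 1.33% ± 0.108 in siPiezo1 and 0.996% ± 0.108 in siNC, and Prdx3 held 1.27% ± 0.153 in siPiezo1 and 1.74% ± 0.159 in siNC (SD, n = 3 each). In siPiezo1 1, 2 and 3 the shares were 1.37%, 1.42% and 1.21% for Prdx4, against 1.16%, 1.45% and 1.21% for Prdx3. Prdx3 held the larger share of the pair in every siNC library, and in siPiezo1 the pair was close. With the length of the principal transcript in place of all exon bases, Prdx4 held 2.05%, 2.14% and 1.83% in siPiezo1, against 1.63%, 1.31% and 1.57% in siNC. On that length the share of Prdx3 averaged 0.900% in siPiezo1 and 1.24% in siNC. The order of the pair thus depends on the length used. Each gene is divided by the same length in every library, so the direction between the groups could hardly change with it.

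Prdx4 is the peroxiredoxin of the endoplasmic reticulum, where it takes up hydrogen peroxide made during disulfide formation and passes oxidising equivalents to protein disulfide isomerases. It stood at 63.8, 60.7 and 57.6 CPM in siPiezo1 1, 2 and 3, against 40.4, 38.6 and 40.4 CPM in siNC 1, 2 and 3. Every siPiezo1 library lay above every siNC library, and the 3 siNC values lay within 2 CPM of each other. The means were 60.7 ± 3.11 CPM in siPiezo1 and 39.8 ± 1.02 CPM in siNC (SD, n = 3 each), a ratio of 153%. As log2 fold change of siPiezo1 over siNC this was 0.61 ± 0.08 (SE), and 0.59 ± 0.08 (SE) without siNC 2. These are values of the contrast that chose the set, and nothing is drawn from them. The mitosis sums given above were higher in siPiezo1 than in siNC 1 and 3 and highest in siNC 2, and their part in the Prdx4 value was not tested.

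Prdx3, the peroxiredoxin of the mitochondrial matrix, showed the opposite order. It stood at 38.0, 43.3 and 40.3 CPM in siPiezo1 1, 2 and 3, against 47.8, 48.4 and 50.6 CPM in siNC 1, 2 and 3. Every siPiezo1 library lay below every siNC library. Its log2 fold change was -0.27 ± 0.09 (SE), and -0.28 ± 0.09 (SE) without siNC 2.

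Prdx5, an atypical peroxiredoxin found in mitochondria, peroxisomes and the cytosol, stood at 749, 638 and 700 CPM in siPiezo1, against 517, 667 and 511 CPM in siNC. The siNC 2 library lay within the siPiezo1 range, and the other siNC libraries lay below all siPiezo1 libraries. The log2 fold change was 0.30 ± 0.13 (SE), and 0.43 ± 0.07 (SE) without siNC 2. Exons of Trmt112 on the opposite strand cover 19.1% of the exon bases of Prdx5. Trmt112 stood at 18.8 to 21.2 CPM in siPiezo1 and 16.1 to 19.7 CPM in siNC.

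Prdx1 and Prdx2 are the typical peroxiredoxins of the cytosol. Prdx1 stood at 5239, 4850 and 5411 CPM in siPiezo1, against 4286, 4940 and 4506 CPM in siNC. The groups overlapped through siNC 2 and siPiezo1 2 alone, and the log2 fold change was 0.17 ± 0.10 (SE), or 0.23 ± 0.06 (SE) without siNC 2. Near-identical copies of Prdx1, among them Gm21399 with 98.3% identity over 597 bases, held counts equal to 1.04% of those of Prdx1. Prdx2, which is best known from red cells, stood at 145, 136 and 135 CPM in siPiezo1, against 142, 134 and 132 CPM in siNC. The ranges of the groups overlapped, with a log2 fold change of 0.03 ± 0.07 (SE). The 10 markers of red cells summed to at most 12.5 CPM in siPiezo1 and 10.8 CPM in siNC. Exons of Junb and Rnaseh2a on the opposite strand each cover under 6% of Prdx2, at 5.67% and 5.80%. Junb stood at 104 to 113 CPM in siPiezo1 and 88.2 to 124 CPM in siNC, near the level of Prdx2 itself. Rnaseh2a stood at 12.1 to 15.6 CPM in siPiezo1 and 10.9 to 13.7 CPM in siNC.

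Prdx6 uses a single catalytic cysteine and relies on glutathione instead of thioredoxin. It stood at 204, 154 and 240 CPM in siPiezo1, against 155, 335 and 156 CPM in siNC. The siNC 2 library was the highest of the 6, 1.11 on the log2 scale above the mean of siNC 1 and 3. The log2 fold change was -0.11 ± 0.33 (SE) with all libraries and 0.36 ± 0.20 (SE) without siNC 2, so its sign turned when that library was left out. In siNC 2 the neutrophil and mitosis sums given above were the highest as well, and their part in the Prdx6 value was not tested.

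Txn1, the cytosolic thioredoxin, was the steadiest gene of the set in the siPiezo1 group. It stood at 346, 347 and 350 CPM in siPiezo1, against 329, 388 and 321 CPM in siNC. The siNC 2 value lay above, and those of siNC 1 and 3 below, all siPiezo1 libraries. Between the groups the log2 fold change was 0.01 ± 0.10 (SE), and 0.09 ± 0.05 (SE) without siNC 2. With library totals alone as the scaling it was -0.01, so Txn1 has no direction that holds across scalings.

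Txnrd1, the selenoprotein that reduces cytosolic thioredoxin, stood at 714, 550 and 856 CPM in siPiezo1, against 510, 690 and 482 CPM in siNC. The siPiezo1 libraries spread widely, with a coefficient of variation of 21.7%, and siNC 2 lay among them. The log2 fold change was 0.33 ± 0.20 (SE), and 0.51 ± 0.20 (SE) without siNC 2. Within siPiezo1, Prdx1, Prdx6 and Txnrd1 shared the order of libraries, with replicate 3 highest and replicate 2 lowest. Prdx5, Srxn1 and Gclm shared another order, with replicate 1 highest and replicate 2 lowest. With so few libraries, nothing is read from shared orders. The range of the siPiezo1 libraries on the log2 scale was 0.64 for Prdx6, 0.64 for Txnrd1 and 0.16 for Prdx1.

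Srxn1 and Gclm lay well below all other libraries in siNC 2, where Prdx4 was the only other gene of the set at its lowest, by a small margin. Srxn1, the sulfiredoxin that repairs overoxidised peroxiredoxins, stood at 474, 381 and 407 CPM in siPiezo1, against 377, 277 and 380 CPM in siNC. The groups did not overlap, but siPiezo1 2 and siNC 3 were separated by less than 2 CPM, at 381.4 and 379.9 CPM. Gclm, the modifier subunit of the enzyme that starts glutathione synthesis, stood at 548, 339 and 390 CPM in siPiezo1, against 361, 254 and 358 CPM in siNC. Its siPiezo1 2 value lay below siNC 1 and 3. Exons of Gm17494 on the opposite strand cover 4.71% of the exon bases of Gclm, and those of Gm6061 on the same strand 3.88%. Gm17494 stood at 47.5, 37.1 and 39.9 CPM in siPiezo1, against 103, 75.9 and 49.2 CPM in siNC. The log2 fold changes were 0.29 ± 0.15 for Srxn1 and 0.39 ± 0.22 for Gclm (SE), and without siNC 2 they were 0.15 ± 0.09 and 0.24 ± 0.24 (SE). In siNC 2 Srxn1 stood at -0.45, and Gclm at -0.50, on the log2 scale relative to the mean of siNC 1 and 3, whereas Prdx6, Txnrd1, Prdx5, Txn1 and Prdx1 stood at 1.11, 0.48, 0.38, 0.26 and 0.17. Of the genes with an antioxidant response element core, Prdx1 and Txnrd1 were above, and Srxn1 and Gclm below, siNC 1 and 3 in siNC 2. These are values of 1 library, and the part of NRF2 in them was not tested.

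**Figure D2:**
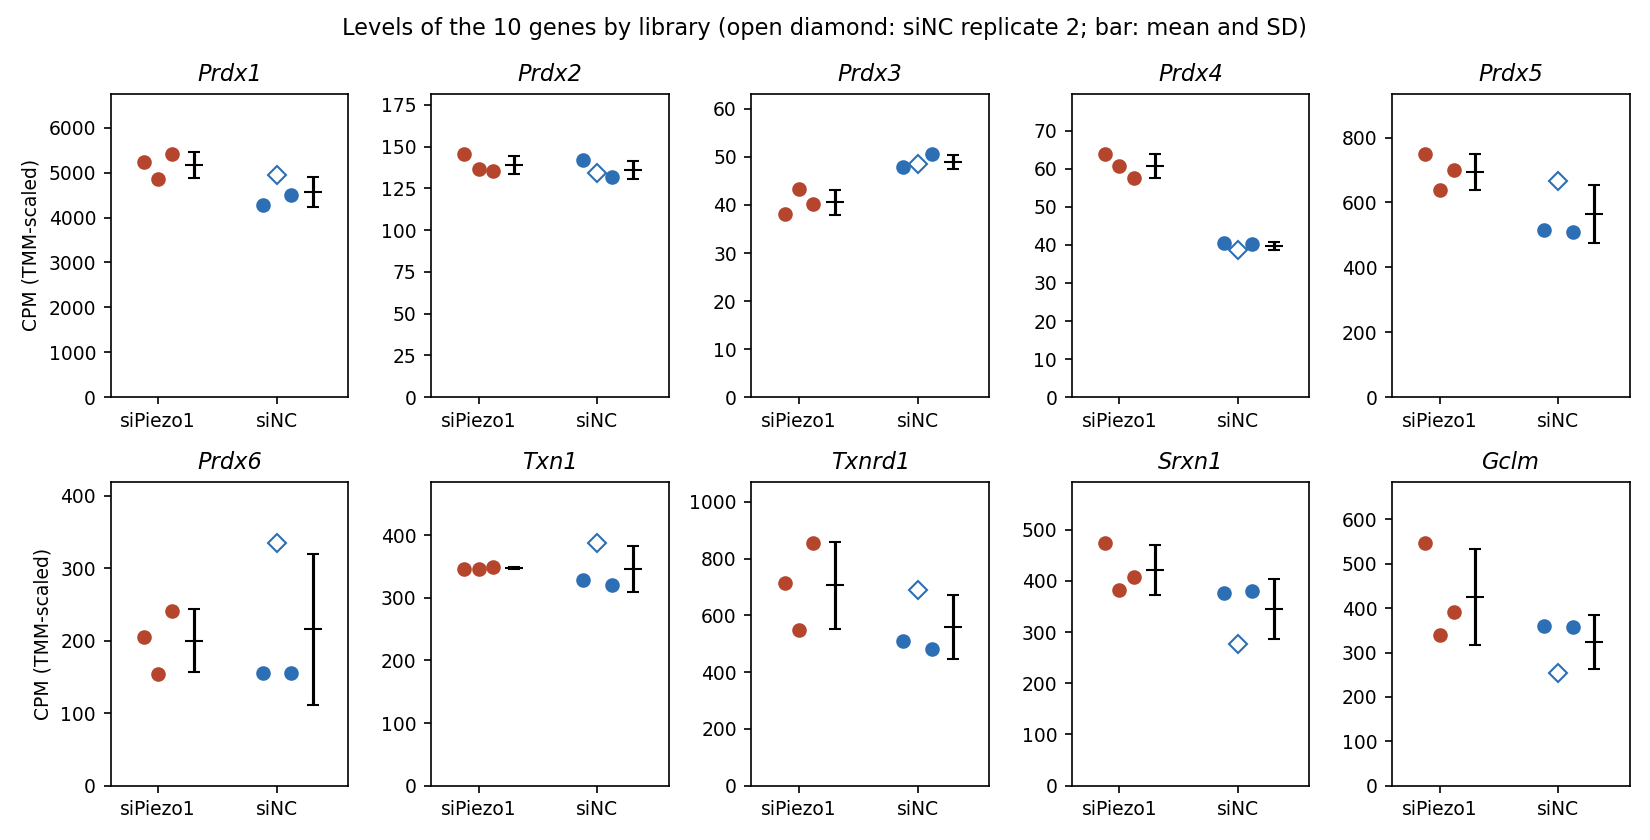
TMM-scaled CPM of each gene by library, siPiezo1 on the left and siNC on the right, with axes from 0; the bar beside each group is its mean and SD (n = 3) and the open diamond is siNC replicate 2. Prdx4 (57.6 to 63.8 against 38.6 to 40.4 CPM) and Prdx3 (38.0 to 43.3 against 47.8 to 50.6 CPM) separate the groups in opposite directions, and siNC 2 is the highest siNC library for Prdx1, Prdx5, Prdx6, Txn1 and Txnrd1.

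**Figure D3:**
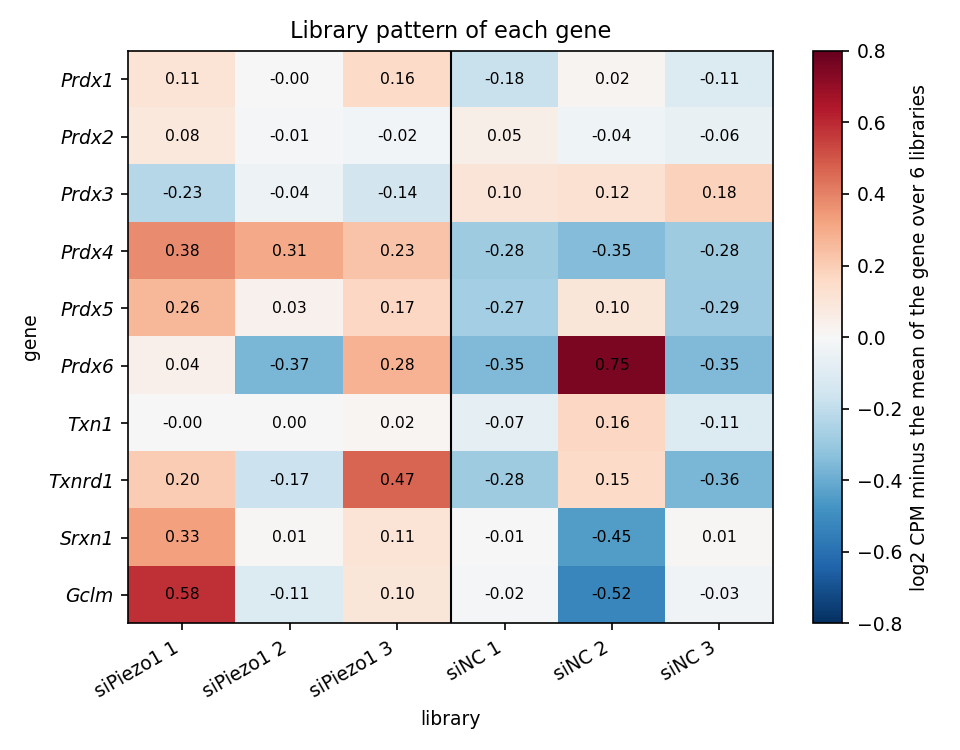
Log2 CPM of each gene in each library minus the gene's mean over the 6 libraries; columns are libraries, siPiezo1 left of the line and siNC right of it, and rows are genes. Srxn1 and Gclm are lowest in siNC 2 (-0.45 and -0.52), where Prdx6 is highest (0.75).

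Across the set, 8 of the 10 genes had a log2 fold change above 0, with a median of 0.23, against 7660 of 15959 genes and a median of -0.01 over all genes tested. Without siNC 2 the median was 0.23 again, with 9 of 10 above 0. The groups did not overlap, higher in siPiezo1, for 2 of the 10 (Prdx4 and Srxn1), against 6.24% of all genes, and lower for 1 (Prdx3), against 5.65% of all genes. Without siNC 2 the counts were 6 higher (Prdx1, Prdx4, Prdx5, Txn1, Txnrd1 and Srxn1), against 16.9% of all genes, and 1 lower, against 16.4%. By edgeR (quasi-likelihood, Benjamini-Hochberg over all genes), 0 of the 10 passed the threshold of 0.05, where 0.00627% of all genes did, and 2 had an unadjusted p under 0.05 (Prdx4 and Prdx3), where 4.93% of all genes did. DESeq2 called 1 of the 10, Prdx4, higher and 0 lower, where it called 0.551% of all genes, 0.288% higher and 0.263% lower. Without siNC 2, edgeR called 2 of the 10 higher (Prdx4 and Prdx5) and 0 lower, where it called 0.645% of all genes higher and 0.45% lower. Because this contrast chose the set, nothing is read from these counts. The coefficient of variation of the 10 genes ran from 0.603% (Txn1) to 25.6% (Gclm) in siPiezo1 and from 2.56% (Prdx4) to 48.1% (Prdx6) in siNC.

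**Figure D4:**
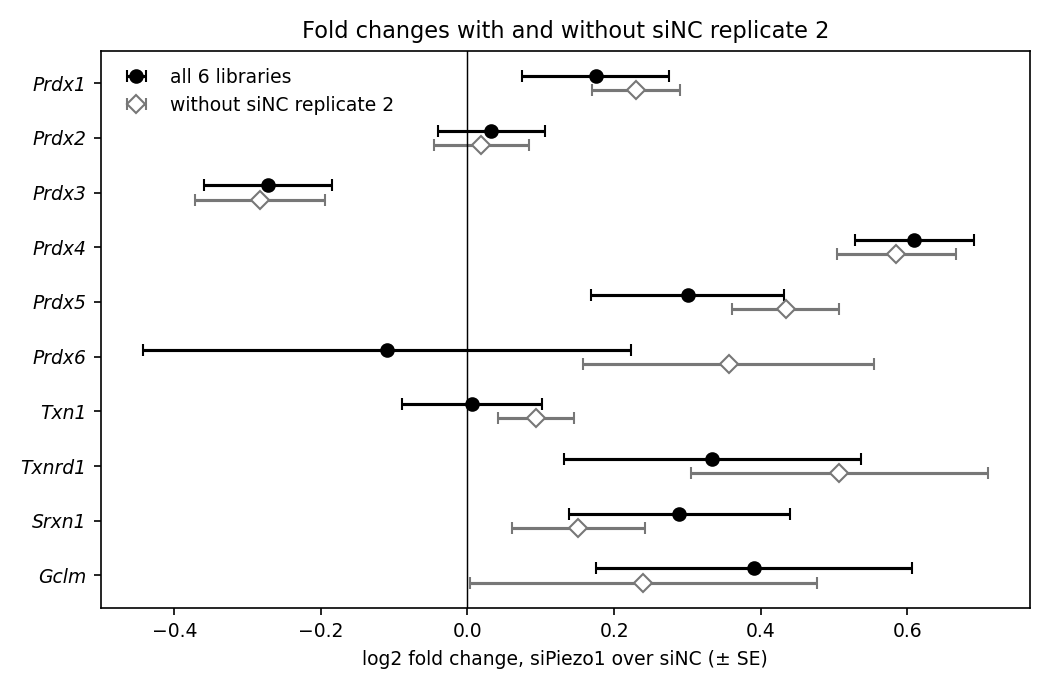
Log2 fold changes of siPiezo1 over siNC with their SE from edgeR, with all 6 libraries (filled) and without siNC replicate 2 (open diamonds). Prdx4 (0.61 and 0.59) and Prdx3 (-0.27 and -0.28) moved little when siNC 2 was left out, and Prdx6 changed sign (-0.11 and 0.36).

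By the rule used for likeness, the 5 genes whose log2 CPM followed that of Prdx4 most closely over the 6 libraries were Creg2 (Pearson r = 0.986), Itgb7 (0.984), Arfgef3 (0.976), Cd28 (0.972) and Zfp451 (0.971), among 2332 genes of at least 20 CPM and an SD of log2 CPM of at least 0.2. These values are a description, with the group difference in all of them. Creg2 stood at 40.8, 40.7 and 36.0 CPM in siPiezo1, against 29.5, 27.3 and 29.0 CPM in siNC. Itgb7, an integrin beta chain, stood at 32.6, 30.7 and 30.5 CPM in siPiezo1, against 22.2, 23.5 and 22.7 CPM in siNC. Cd28, best known as a T-cell costimulator, stood at 47.2, 44.0 and 44.0 CPM in siPiezo1, against 27.8, 29.4 and 25.5 CPM in siNC, while the T-cell receptor genes named above were at 0.

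The other genes of the redox network were taken as 8 lists with 126 genes, of which 123 were tested. With all 6 libraries edgeR called 0 of the 123 in either direction, where it called 0.00627% of all genes, and DESeq2 and limma-voom also called 0. At an unadjusted p under 0.05 there were 5 higher (Msrb1, Gsto1, Gpx4, Taldo1 and Sesn3) and 2 lower (Txndc5 and Pdia6), where 4.93% of all genes were at such a p. The median log2 fold change of the 123 was 0.005, against -0.01 for all genes. Without siNC 2 the median was 0.06, against 0.00391 for all genes. With all 6 libraries the groups did not overlap, higher in siPiezo1, for 13 of the 123, against 6.24% of all genes. They did not overlap, lower in siPiezo1, for 11, against 5.65% of all genes.

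Msrb1 had the smallest p of the 123. It is a selenoprotein that repairs oxidised methionine with thioredoxin's electrons, and it stood at 424, 394 and 413 CPM in siPiezo1, against 334, 302 and 255 CPM in siNC. The groups did not overlap. With all libraries its log2 fold change was 0.47 ± 0.11 (SE), and it did not pass (edgeR adjusted p = 0.857). Of the 16 other genes of the thioredoxin family, 7 were above 0 and 9 below, with a median of -0.03. Without siNC 2, 9 of them were above 0, with a median of 0.01. Txn2, the mitochondrial thioredoxin that reduces Prdx3, stood at 47.4, 35.1 and 28.4 CPM in siPiezo1, against 48.7, 45.3 and 48.1 CPM in siNC. Every siPiezo1 value of Txn2 was below siNC 1, and that of siPiezo1 1 lay within the siNC range. Its log2 fold change was -0.36 ± 0.18 (SE, edgeR adjusted p = 0.978).

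In the glutathione list 13 of 20 tested genes were above 0, with a median of 0.05, and without siNC 2 there were 16, with a median of 0.21, against 0.00391 for all genes. Gpx4, the peroxidase that reduces lipid peroxides, stood at 275, 256 and 259 CPM in siPiezo1, against 227, 208 and 226 CPM in siNC. Its log2 fold change was 0.26 ± 0.08 (SE, edgeR adjusted p = 0.967). Gsto1, a glutathione transferase, had 0.25 ± 0.08 (SE, edgeR adjusted p = 0.966). In both genes every siPiezo1 library lay above every siNC library, and neither passed the threshold. Of the 20 tested genes of this list, 3 stood apart in that way (Gpx1, Gpx4 and Gsto1), against 6.24% of all genes. Chac1 alone stood apart lower, against 5.65% of all genes. It stood at 1.27, 1.41 and 1.54 CPM in siPiezo1, against 1.63, 2.69 and 2.17 CPM in siNC. Gclc, the catalytic partner of Gclm, stood at 101, 80.6 and 92.2 CPM in siPiezo1, against 88.5, 90.5 and 80.3 CPM in siNC, with overlapping groups and a log2 fold change of 0.08 ± 0.11 (SE).

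Of the 18 genes of NRF2, its regulators and its other targets, 12 were above 0, with a median of 0.04. Without siNC 2 only 9 of the 18 were above 0, with a median of 0.04. Nfe2l2, which encodes NRF2, stood at 549, 521 and 526 CPM in siPiezo1, against 504, 389 and 488 CPM in siNC (log2 fold change 0.21 ± 0.11, SE, edgeR adjusted p = 0.978). Without siNC 2 its value was 0.10 ± 0.06 (SE). Cbr1, a carbonyl reductase, had 0.53 ± 0.29 (SE, edgeR adjusted p = 0.978), with overlapping groups. Nqo1, a widely used NRF2 target, stood at 35.7, 23.4 and 41.9 CPM in siPiezo1, against 14.7, 40.0 and 17.6 CPM in siNC. As for Txnrd1, the siNC 2 value of Nqo1 lay within the siPiezo1 range and those of siNC 1 and 3 below it. Nqo1, Gclc, Gpx1 and Chac1 were singled out after their values were seen, as were the genes below that are named for not overlapping.

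NADPH feeds thioredoxin reductase, and 10 of 15 genes of its supply were above 0, with a median of 0.04. Without siNC 2 there were again 10, with a median of 0.11. Taldo1, a transaldolase of the pentose phosphate pathway, stood at 529, 516 and 492 CPM in siPiezo1, against 428, 311 and 438 CPM in siNC. Its log2 fold change was 0.38 ± 0.14 (SE, edgeR adjusted p = 0.978), and 0.24 ± 0.06 (SE) without siNC 2. Idh2, the mitochondrial NADP-dependent isocitrate dehydrogenase, had -0.31 ± 0.14 (SE, edgeR adjusted p = 0.978). The groups overlapped for Idh2.

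Among superoxide dismutases, catalase and sestrins, 6 of 8 genes were above 0, with a median of 0.11. Without siNC 2 there were 5, with a median of 0.11. Sesn3, a sestrin, had a log2 fold change of 0.46 ± 0.18, and Ccs, the copper chaperone of superoxide dismutase, 0.26 ± 0.14 (SE, edgeR adjusted p = 0.978 for each). Ccs stood at 0.16 ± 0.12 (SE) without siNC 2. Of the sources of oxidants, 6 of 10 tested genes were above 0, with a median of 0.01. Without siNC 2 there were again 6, with a median of 0.04. Cybb, the catalytic chain of the phagocyte NADPH oxidase, stood at 5173, 4811 and 5362 CPM in siPiezo1, against 4483, 3494 and 4474 CPM in siNC. The groups did not overlap, and the log2 fold change was 0.30 ± 0.13 (SE, edgeR adjusted p = 0.978), or 0.19 ± 0.06 (SE) without siNC 2. Ncf4, a cytosolic chain of the same oxidase, had 0.14 ± 0.07 (SE, edgeR adjusted p = 0.978). Of 9 signalling proteins known as partners of peroxiredoxins or thioredoxin, 5 were above 0, with a median of 0.001. Without siNC 2 there were 7, with a median of 0.05. Map3k5, the kinase ASK1 that thioredoxin holds inactive, had 0.26 ± 0.14, and Ptpn1, a phosphatase open to oxidation, 0.13 ± 0.10 (SE, edgeR adjusted p = 0.978 and 0.982). Ptpn1 stood at 0.05 ± 0.07 (SE) without siNC 2.

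Most genes that work beside Prdx4 in the endoplasmic reticulum had a negative log2 fold change, and none passed the test. Of 27 tested genes of oxidative folding and chaperones, 20 were below 0, with a median of -0.12. The groups did not overlap, lower in siPiezo1, for 9 of the 27 (Pdia3, Pdia6, Txndc5, Txndc11, Hsp90b1, Calr, Canx, Sdf2l1 and Hyou1), against 5.65% of all genes, and higher for 2 (Ero1b and Tmx3), against 6.24%. Pdia6, a disulfide isomerase, stood at 160, 181 and 185 CPM in siPiezo1, against 204, 306 and 197 CPM in siNC (log2 fold change -0.43 ± 0.18, SE, edgeR adjusted p = 0.978). Txndc5, another thioredoxin-domain isomerase, stood at 85.5, 84.6 and 87.3 CPM in siPiezo1, against 96.8, 115 and 94.0 CPM in siNC (-0.25 ± 0.10, SE, edgeR adjusted p = 0.978). In both genes siNC 2 was the highest library, and without it the values were -0.20 ± 0.07 for Pdia6 and -0.16 ± 0.06 for Txndc5 (SE). When it was left out, the list had 13 of 27 genes above 0 and a median of -0.06, and groups that did not overlap numbered 9 lower, against 16.4% of all genes, and 5 higher, against 16.9%. P4hb, the isomerase that Prdx4 is known to oxidise, stood at 641, 659 and 709 CPM in siPiezo1, against 606, 945 and 633 CPM in siNC, with overlapping groups.

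Ero1a, the oxidase that makes disulfides and hydrogen peroxide in the endoplasmic reticulum, was the gene of the 8 lists whose call changed when siNC 2 was left out. It stood at 215, 212 and 245 CPM in siPiezo1, against 149, 362 and 144 CPM in siNC. With all libraries the log2 fold change was 0.04 ± 0.36 (SE, edgeR adjusted p = 0.999). Without siNC 2 it was 0.61 ± 0.07 (SE) and passed the threshold (edgeR adjusted p = 0.0133), the only 1 of the 123 to do so, where 1.09% of all genes passed. Its sign turned without siNC 1 (-0.18), siNC 3 (-0.19) or siPiezo1 3 (-0.03).

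**Figure D5:**
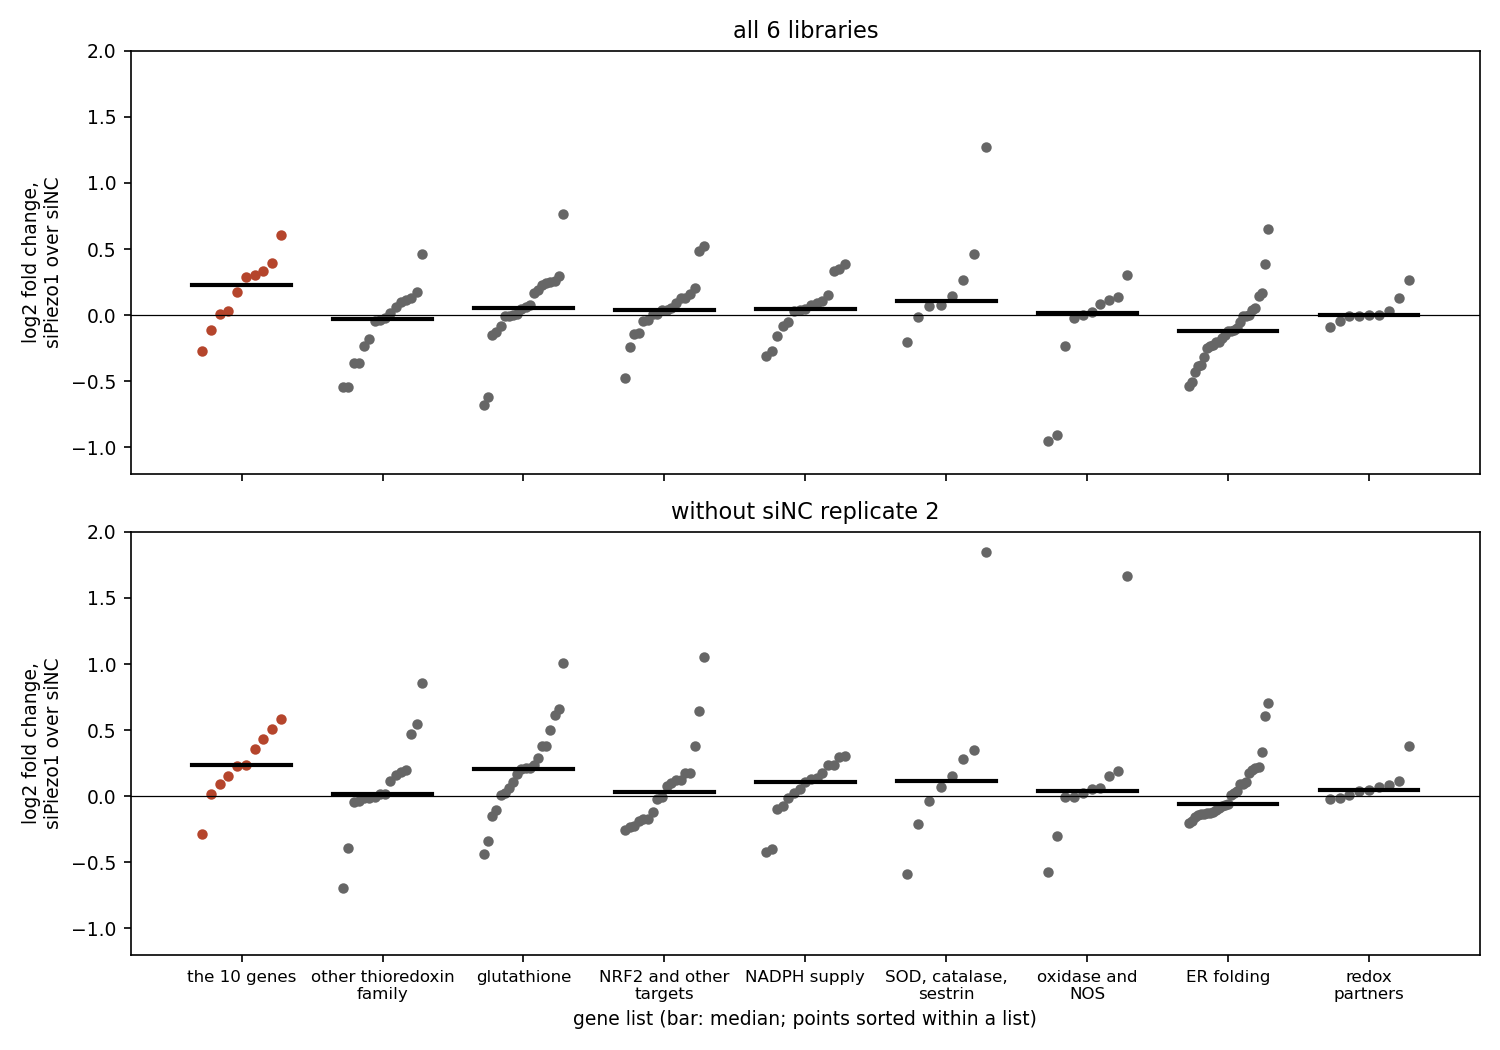
Log2 fold changes of siPiezo1 over siNC for the 10 genes and for the tested genes of the 8 redox lists, with all 6 libraries (top) and without siNC replicate 2 (bottom); each point is a gene and the bar is the list's median. The median of the 10 genes is 0.23 in both panels, that of the endoplasmic reticulum list is -0.12 and -0.06, and that of the glutathione list is 0.05 and 0.21.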

How the data were processed

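Poly(A) RNA of 6 libraries was measured, with groups taken from the sample titles. Per the submitters' processing notes, cutadapt 1.9, HISAT2 2.0.4, StringTie 1.3.4d, DESeq2 and edgeR were used with the build GRCm39. Not given in the sources used here are the role of each tool, the annotation and the strand setting of counting. The authors deposited whole-number estimated counts per Ensembl gene, unscaled. Low values pile up at multiples of 3.78 counts, so the totals stood for about 16.2 to 19.9 M fragments. No rounding was needed.

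Identifiers were named with GENCODE M21 (build GRCm38), which matched 55141 of 55401; no file coordinates are given. A symbol with 2 identifiers (Nnt) was read from the more abundant 1. Analysis used R 4.3.3 and edgeR 4.0.16: filterByExpr by group, TMM factors (0.988 to 1.028), and the quasi-likelihood test with robust dispersions on all 6 libraries, group as the only term, with Benjamini-Hochberg adjustment over all tested genes at 0.05. The SE is the size of the fold change over the square root of F. CPM used the TMM factors, and level per kilobase used the union of M21 exons. Copies of the members were sought with BLAST 2.17.0 (at least 90% identity over 200 bases). The test was checked on simulated counts. The labels do not say whether replicates are separate cultures, so each p reflects the scatter of these libraries, possibly only technical.

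The members and lists were chosen with earlier results of these data known. Named genes were Piezo1, the 10 members, the 2 genes of each list with the smallest p (or those past the threshold), up to 3 of a list past the threshold without siNC 2, and the 5 genes most like Prdx4. Each result was recomputed with the size factors of DESeq2, with library totals, without a filter, with a filter of 50 counts in 3 libraries, with limma-voom (limma 3.58.1), with DESeq2 1.42.0, with the replicate number as a block, with counts divided by 4, and leaving out each library. The length of the principal transcript, for shares of the peroxiredoxin level, was added after seeing the data.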

Additional observations from a re-analysis of the deposited data

How the results depend on the processing

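Over all 14 alternatives the median log2 fold change of the 10 genes stayed within 1 SD of its value of 0.23, with 0.16 to 0.29 when 1 library was left out. Prdx1, Prdx3, Prdx4, Prdx5, Txnrd1, Srxn1 and Gclm kept their sign in all 14, with Prdx4 at 0.57 to 0.65 and Prdx3 at -0.32 to -0.23. The groups did not overlap for Prdx3, Prdx4 and Srxn1, so leaving out 1 library could hardly turn their sign. The counts of Prdx4 also chose the set, and nothing is drawn from its range. The sign turned for Prdx6 without siNC 2 (0.36) or siPiezo1 2 (0.05), for Txn1 with library totals (-0.01) or without siNC 1 (-0.03) or siNC 3 (-0.05), and for Prdx2 without siPiezo1 1 (-0.003).

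The count of all genes past the threshold, 1 (0 higher, 1 lower), was 88 with DESeq2 (46 higher, 42 lower), 0 with library totals alone and 0 with the replicate block. Leaving out 1 library gave 0 to 180 genes (0 to 106 higher, 0 to 74 lower): 180 without siNC 2, 5 without siPiezo1 3, 1 without siPiezo1 2 and 0 without siNC 1, siNC 3 or siPiezo1 1; the cause was not tested. The count among the other redox genes was 0 to 1 with 1 library left out, the 1 being Ero1a without siNC 2 (0.61). Ero1a turned to -0.18 without siNC 1, -0.19 without siNC 3 and -0.03 without siPiezo1 3. Same-numbered libraries did not deviate together (r of 0.03, -0.06 and -0.09 across genes). With so few libraries this cannot exclude that the numbers mark shared cultures or batches, which the labels do not state. With the replicate block the SE fell for Gclm (0.22 to 0.13) and Srxn1 (0.15 to 0.12), and rose for the other genes of the set.

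With 1 library left out, the log2 fold change spanned 0.17 to 0.51 for Txnrd1, 0.16 to 0.53 for Gclm and 0.15 to 0.36 for Srxn1. The sign was the same throughout, which for Srxn1 follows from groups that did not overlap. Among the other genes it spanned -0.58 to -0.20 for Txn2, 0.34 to 0.80 for Cbr1, -0.42 to -0.21 for Idh2 and 0.05 to 0.22 for Ptpn1. With the length of the principal transcript, Prdx1 held 73.6% of the summed peroxiredoxin level in siPiezo1 and 74.2% in siNC.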

Other observations

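Redox genes outside the 10 also set siNC 2 apart from the other libraries, in both directions; they were singled out after their values were seen. Slc7a11, the cystine importer that feeds glutathione synthesis, stood at 673, 538 and 688 CPM in siPiezo1, against 412, 1277 and 414 CPM in siNC 1, 2 and 3. Hmox1, heme oxygenase, stood at 2124, 1977 and 2251 CPM in siPiezo1, against 1853, 3636 and 2016 CPM in siNC. Nos2, the inducible nitric oxide synthase, stood at 39.0, 27.5 and 60.7 CPM in siPiezo1, against 13.2, 211 and 13.5 CPM in siNC. In these 3 genes siNC 2 was the highest of the 6 libraries.

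In other genes it was the lowest. Gpx1, the cytosolic glutathione peroxidase, stood at 279, 306 and 339 CPM in siPiezo1, against 230, 70.7 and 243 CPM in siNC. Cat, catalase, stood at 1157, 1017 and 1022 CPM in siPiezo1, against 1182, 581 and 1272 CPM in siNC. Txnip, the inhibitor of thioredoxin, stood at 172, 170 and 189 CPM in siPiezo1, against 225, 109 and 348 CPM in siNC. The peroxiredoxin and thioredoxin genes took both sides too, with Prdx6 and Txnrd1 above, and Srxn1 and Gclm below, siNC 1 and 3 in siNC 2.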
